A study of Mus musculus with 6 samples.

Results

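L929 is a clonal mouse fibroblast line grown from connective tissue, and its response to interferon-beta (IFN-beta) is the difference between 2 arrays, L929 unstimulated and L929 after 4 h of IFN-beta. These are 2 of the 6 samples of the series. The other 4 are from NIH3T3, a fibroblast line of embryonic origin, and from the macrophage line RAW264.7, again without stimulation or with 4 h of IFN-beta. The RNA of each sample was hybridised to 1 Affymetrix whole-transcript array, and the labels state no dose of IFN-beta. All 19938 genes with a probe set that names a single gene were taken, each through the probe set with the highest mean over the 6 arrays. With 1 array a side in L929 there is no replicate error, so differences within L929 are descriptions. Levels are log2 values of 1 probe set, and a fold is 2 to the power of the difference between both arrays. Where a gene is given a pair of levels, the unstimulated level comes first. The threshold of 3-fold is the one in the series' design.

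IFN-beta is a type I interferon. It binds a receptor made of Ifnar1 and Ifnar2, which activates the kinases Jak1 and Tyk2, and these phosphorylate STAT proteins. A complex that includes Stat2 and Irf9 then binds the interferon-stimulated response element (ISRE) of target genes, while STAT dimers bind the gamma-activated site (GAS). The targets include proteins that block viral replication, GTPases that attack the vacuoles of intracellular microbes, antigen presentation genes and chemokines. L929 cells have long been used to measure interferon by the protection it gives against a lytic virus.

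The promoters below are shown because 1 short sequence was more frequent in promoters of genes with a larger difference in L929. Ifit1, Cxcl10, Rsad2 and Gbp7 are among the 20 largest increases, Ifi214 was higher in L929 alone, and Cxcl9 and Mpeg1 are genes with a large difference and no match. All were chosen after their values were seen. Each is the 250 bases before the transcription start in RefSeq (GRCm38.p6), written 5′ to 3′ on the gene's strand. Capitals mark an ISRE-like match, which is 2 copies of GAAA separated by 2 bases on either strand, and in Gbp7 also GAS-like matches to TTCNNNGAA, which reads the same on both strands.
Ifit1: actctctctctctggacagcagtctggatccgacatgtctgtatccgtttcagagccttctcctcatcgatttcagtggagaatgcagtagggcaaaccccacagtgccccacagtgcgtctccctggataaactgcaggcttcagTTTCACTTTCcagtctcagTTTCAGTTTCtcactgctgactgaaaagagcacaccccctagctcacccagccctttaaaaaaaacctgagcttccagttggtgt
Cxcl10: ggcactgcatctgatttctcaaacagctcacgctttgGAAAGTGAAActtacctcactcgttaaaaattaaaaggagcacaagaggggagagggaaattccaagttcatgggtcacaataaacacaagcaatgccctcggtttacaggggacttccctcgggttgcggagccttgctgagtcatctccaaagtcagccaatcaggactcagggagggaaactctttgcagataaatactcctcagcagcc
Rsad2: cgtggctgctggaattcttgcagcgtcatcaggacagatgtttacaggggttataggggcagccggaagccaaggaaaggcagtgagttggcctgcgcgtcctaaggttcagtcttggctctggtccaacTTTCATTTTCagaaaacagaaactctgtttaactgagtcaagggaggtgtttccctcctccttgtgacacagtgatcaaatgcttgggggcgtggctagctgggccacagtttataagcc
Gbp7: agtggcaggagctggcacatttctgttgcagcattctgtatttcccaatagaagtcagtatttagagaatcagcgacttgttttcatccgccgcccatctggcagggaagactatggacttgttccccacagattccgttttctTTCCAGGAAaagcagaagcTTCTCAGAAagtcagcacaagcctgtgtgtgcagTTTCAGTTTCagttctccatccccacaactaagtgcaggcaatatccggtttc
Ifi214: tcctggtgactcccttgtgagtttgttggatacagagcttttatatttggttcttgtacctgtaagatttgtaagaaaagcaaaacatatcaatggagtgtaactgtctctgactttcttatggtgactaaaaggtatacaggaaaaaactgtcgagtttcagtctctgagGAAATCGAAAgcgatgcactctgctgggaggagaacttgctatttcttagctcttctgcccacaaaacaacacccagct
Cxcl9: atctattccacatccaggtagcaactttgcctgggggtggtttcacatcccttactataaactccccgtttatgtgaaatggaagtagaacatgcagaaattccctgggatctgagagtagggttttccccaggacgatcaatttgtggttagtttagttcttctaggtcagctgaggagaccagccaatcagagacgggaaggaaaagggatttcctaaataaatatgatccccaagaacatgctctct
Mpeg1: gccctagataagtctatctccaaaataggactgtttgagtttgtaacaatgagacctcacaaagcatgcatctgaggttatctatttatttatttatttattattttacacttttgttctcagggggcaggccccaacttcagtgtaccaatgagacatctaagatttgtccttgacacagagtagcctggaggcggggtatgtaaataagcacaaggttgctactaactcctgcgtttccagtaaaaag

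These stretches lie at chr19:34640639-34640888 on the plus strand for Ifit1, chr5:92348890-92349139 on the minus strand for Cxcl10 and chr12:26456453-26456702 on the minus strand for Rsad2. They lie at chr3:142530086-142530335 (plus) for Gbp7, chr1:173535958-173536207 (minus) for Ifi214, chr5:92328080-92328329 (minus) for Cxcl9 and chr19:12460520-12460769 (plus) for Mpeg1. Ifit1 holds 2 ISRE-like matches, beginning 104 and 85 bases before the start. Single ones begin 213 bases before the start in Cxcl10, 120 in Rsad2, 53 in Gbp7 and 79 in Ifi214. Gbp7 also holds GAS-like matches that begin 106 and 87 bases before the start.

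Of the 19938 genes, 178 (0.893%) were at least 3-fold higher after IFN-beta in L929 and 2 (0.01%) were at least 3-fold lower. At 2-fold the counts were 314 higher (1.57%) and 75 lower (0.376%), against a median change over all genes of -0.05 on the log2 scale. The upward tail was long, with 70 genes at least 10-fold higher, 37 at least 30-fold and 11 at least 100-fold. H2ac4, a histone gene, was the last gene inside 3-fold at a log2 change of 1.59, and Lgals3bp, a secreted galectin-binding protein, the first outside at 1.58. For the 178 genes, 76 began below the median level of the unstimulated array (4.77) and 150 ended above the upper quartile of the stimulated array (6.93), 51 of them doing both.

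**Figure D1:**
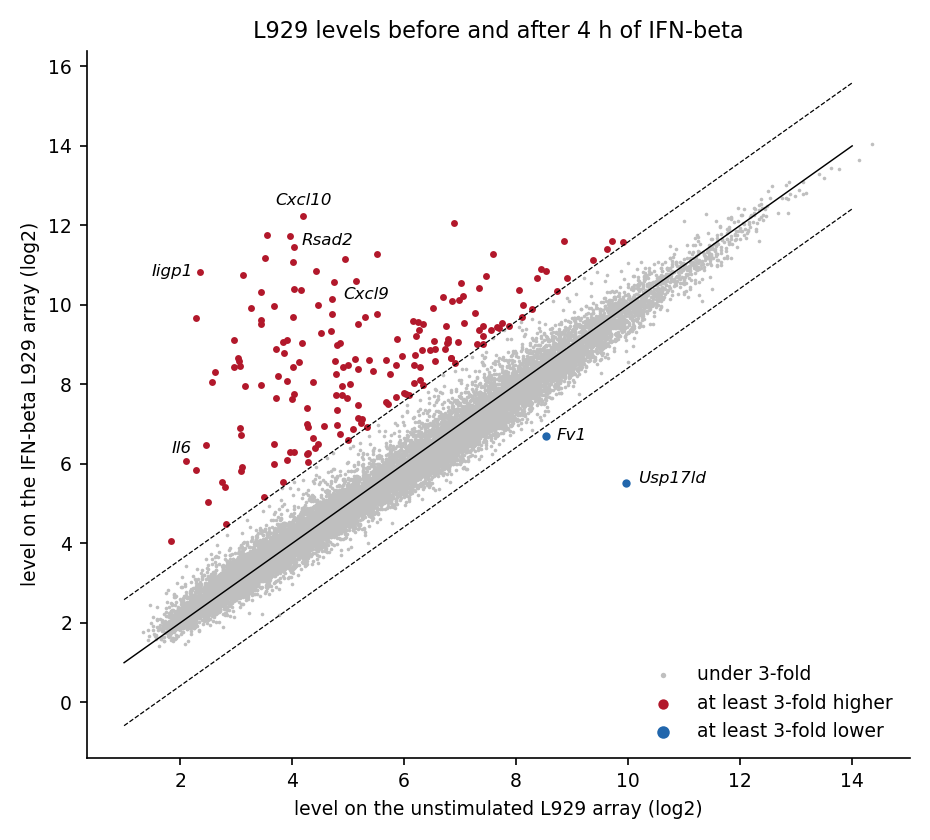
Level of each of 19938 genes on the unstimulated L929 array (x axis, log2) and on the L929 array after 4 h of IFN-beta (y axis, log2), 1 array each. The solid line marks equal levels and the dashed lines 3-fold; 178 genes lie above the upper dashed line and 2, Usp17ld and Fv1, below the lower one.

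The 20 largest increases ran from 56.8-fold to 357-fold. Their unstimulated levels lay between 2.29 and 4.95 and their stimulated levels between 9.11 and 12.23, so that none of the values of one array overlapped those of the other. Of the 178 genes, 24 began below the lower quartile of the unstimulated array (3.36), Iigp1, Gm4951, Ifit3b, Ifi205 and Mx2 among them. No detection call was used, so folds from such starts are differences of the deposited values near the array's floor, and no order is read among them. Iigp1, an immunity-related GTPase that disrupts the vacuoles of intracellular pathogens, was at 2.35 and 10.83. Cxcl10, a chemokine that draws activated T cells, was at 4.2 and 12.23, the highest stimulated level of the 20. Rsad2 (viperin), a radical-SAM enzyme that makes a chain-terminating nucleotide, was at 3.96 and 11.73. All 20 were also at least 3-fold higher in NIH3T3 and 19 in RAW264.7. The exception in RAW264.7 was Rtp4, a receptor transporter with antiviral activity, which was at 4.01 and 11.09 in L929 but at 9.71 and 11.03 in RAW264.7.

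At the receptor, the kinases and most STATs, levels in L929 differed little between the arrays. Of 10 members of the receptor, JAK and STAT list, 2 were at least 3-fold higher and none was 2-fold lower, with a list median of 0.11. Those 2 belong to the ISRE-binding complex. Stat2 had levels of 6.15 and 9.60, a 10.9-fold difference, and Irf9, the DNA-binding subunit of the complex, 5.17 and 8.40, a 9.39-fold difference. Among the rest, Jak2 differed by 0.86 and Stat3 by 0.85 on the log2 scale, while the receptor chain Ifnar2 differed by 0.32, Ifnar1 by -0.12, Jak1 by -0.11 and Tyk2 by -0.42. The gamma interferon receptor chains Ifngr1 and Ifngr2 differed by -0.13 and -0.62.

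Among the interferon regulatory factors, 4 of 7 measured members were at least 3-fold higher. Irf7, the factor that amplifies type I interferon production, stood at 3.90 unstimulated and 9.12 stimulated, 37.2-fold higher. Irf1, an activator of antigen presentation genes, was 8.62-fold higher (6.27 and 9.38) on the probe set used, while its second probe set differed by 1.0 on the log2 scale. Irf2 was 3.45-fold higher (7.75 and 9.54) and Irf5, a factor that acts below Toll-like receptors, 4.08-fold higher (4.47 and 6.50). For Irf5 the change was -0.45 in NIH3T3 and 0.26 in RAW264.7, though the difference did not pass the test described further on (limma adjusted p = 0.156). Irf3, Irf4 and Irf8 differed by 0.10, -0.08 and 0.15.

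Of 9 genes of negative feedback, Usp18 alone was at least 2-fold higher. Usp18 removes ISG15 from proteins and also binds Ifnar2 to dampen signalling, and it was at 4.03 and 11.45, 171-fold. The inducible signalling inhibitors Socs1 and Socs2 differed by 0.92 and 0.95 on the log2 scale, Cish by 0.10 and Socs3 by -0.26. The phosphatases Ptpn2, Ptpn6 and Ptpn11 differed by 0.36, -0.04 and -0.70, and the STAT inhibitor Pias1 by 0.32.

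Families of antiviral genes were higher as a whole. All 5 measured Ifit genes, which sequester foreign RNA ends, were at least 3-fold higher, with a median log2 change of 7.39. Ifit1 was at 3.55 and 11.77 (299-fold), Ifit3 at 3.52 and 11.17 (201-fold) and Ifit3b at 2.29 and 9.68 (168-fold). Ifit2 was at 6.51 and 9.91 (10.6-fold) and Ifit1bl2 at 2.28 and 5.84 (11.7-fold). All 7 measured genes of the oligoadenylate synthetase family were also at least 3-fold higher, from 4.52-fold for Oas1c to 44.4-fold for Oasl2. The active enzymes of this family sense double-stranded RNA and feed RNase L. Each of the 7 had a larger change in L929 than in NIH3T3 and in RAW264.7, with list medians of 3.67, 0.61 and 1.77. Over all genes 4831 of 19938 had their largest change in L929. Other lists shared the trait, with 4 of 4 immunity-related GTPases, 7 of 8 guanylate-binding protein genes and 7 of 9 genes of the Ifi200 family. In NIH3T3 the levels of Oas1a, Oas3 and Oas1c differed by 0.36, 0.29 and 0.22, against 3.83, 3.12 and 2.18 in L929. None of the 7 oligoadenylate synthetase genes passed the test of L929 against the other lines.

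In the wider antiviral list, 15 of 28 members were at least 3-fold higher and 1 at least 3-fold lower. The dynamin-like GTPases Mx1 and Mx2 were 42.0-fold and 71.1-fold higher, with levels of 3.07 and 8.46 for Mx1 and of 2.96 and 9.11 for Mx2. Sp100, a nuclear body protein, was 82.9-fold higher (4.03 and 10.40), Samd9l, which restrains translation, 46.3-fold (4.47 and 10.01) and Bst2 (tetherin), which holds budding virions at the cell surface, 11.5-fold (6.69 and 10.21). The member that was lower was Fv1, a restriction factor of mouse leukaemia viruses, with levels of 8.53 and 6.70. Fv1 differed by -0.02 in NIH3T3 and -0.32 in RAW264.7, and the difference did not pass the test (limma adjusted p = 0.278). Ifi27l2a differed by -0.42 in L929 and by 2.01 in NIH3T3.

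Sensors of viral nucleic acid were split. Of 22, 7 were at least 3-fold higher, and among them were the RNA helicases Ddx58 (RIG-I), at 4.75 and 10.58, and Ifih1 (MDA5), at 4.01 and 9.69. The endosomal receptor Tlr3 was at 4.72 and 9.76 (32.9-fold), and Zbp1, a sensor of Z-form nucleic acid, at 4.86 and 9.03 (18.0-fold). The DNA sensor Cgas was at 4.32 and 4.31. The adaptor Mavs and the kinases Tbk1 and Ikbke differed by -0.23, 0.03 and -0.13. The members at least 3-fold higher included receptors for RNA, while this adaptor and these kinases did not pass 2-fold. Both kinds had exceptions. The adaptor Myd88 was 3.03-fold higher (8.29 and 9.89), and the RNA receptor Tlr7 differed by 0.43 (2.38 and 2.81).

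The list of immunity-related GTPases had a median of 6.94. Its 4 members measured by their own probe set were at least 74.4-fold higher, namely Iigp1 (357-fold), Gm4951 (200-fold), Gm12250 (75-fold) and Irgm1 (74.4-fold). Gm4841, which is not on the list and lies between Gm4951 and Iigp1 in the gene order, was 12.4-fold higher. Irgm1, which regulates the others, stood at 4.95 and 11.16 in L929, at 6.85 and 11.07 in NIH3T3 and at 8.85 and 11.29 in RAW264.7, so that its stimulated levels lay close together and its unstimulated levels apart. Of 8 guanylate-binding protein genes, 7 were at least 3-fold higher and Gbp8 was 2.30-fold higher. Gbp3 was at 3.44 and 10.33, Gbp7 at 3.68 and 9.96 and Gbp2b at 3.45 and 9.51. Gbp4 and Gbp5 were both 21.8-fold higher, Gbp11 14.2-fold and Gbp9 7.18-fold. Probe sets shared by several genes of these families gave like values, with 6.63 on the log2 scale for Irgm2 with Igtp, 7.39 and 7.06 for a pair of probe sets of Tgtp1 with Tgtp2, and 6.43 for Gbp2 with Gbp2b.

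Of the Ifi200 family, whose members bind DNA or regulate transcription, 7 of 9 were at least 3-fold higher, led by Ifi205 with levels of 3.27 and 9.93. The inflammasome sensor Aim2 of the same family was at 7.92 and 8.73. Of 8 Schlafen genes, a family linked to growth arrest and viral restriction, 6 were at least 3-fold higher, led by Slfn5 (3.84 and 9.06). The lists of TRIM ubiquitin ligases, ADP-ribosyl transferases and the ISG15 system had 6 of 13, 5 of 13 and 7 of 12 members at least 3-fold higher. Their leading members, Usp18 apart, were Trim30d at 49.9-fold, Parp14 at 86.3-fold and Dtx3l, the ubiquitin ligase partner of Parp9, at 29.4-fold. Parp9 itself was 25.1-fold higher. The probe set shared by Isg15 and Gm9706 was higher by 4.31 on the log2 scale.

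**Figure D2:**
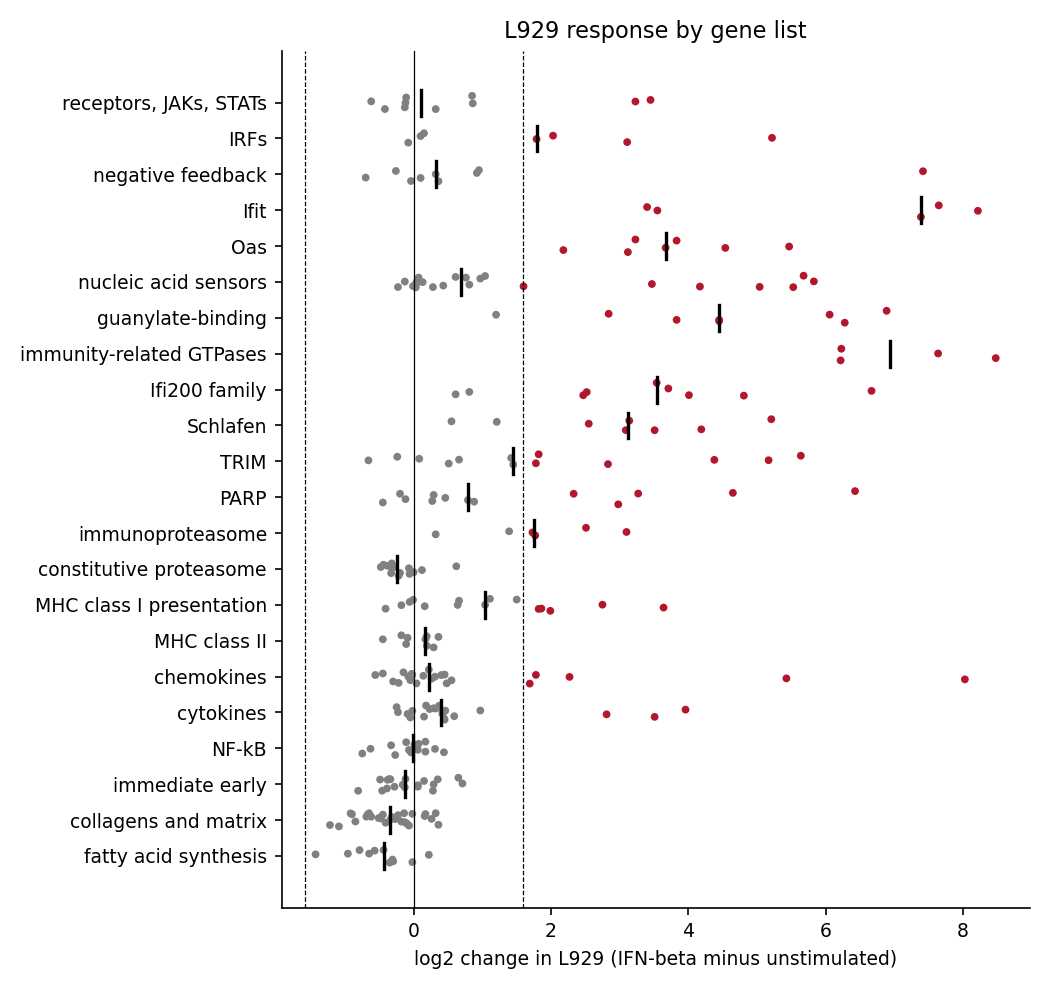
Each point is the log2 change of 1 measured gene in L929 (IFN-beta minus unstimulated, 1 array each), grouped by gene list, in red where at least 3-fold higher. Black bars are list medians, and the dashed lines mark 3-fold in either direction; the Ifit, Oas and immunity-related GTPase lists lie wholly beyond it, and the constitutive proteasome, MHC class II, NF-kB and immediate early lists wholly inside.

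Antigen presentation genes were higher in L929 in some lists. In the immunoproteasome, the form that cuts peptides for MHC class I, 4 of 6 members were at least 3-fold higher and 5 at least 2-fold. Psmb10 was at 7.33 and 10.43 and Psmb8 at 5.74 and 8.25, the regulators Psme1 and Psme2 were 3.42-fold and 3.33-fold higher, and Psmb9 was 2.62-fold higher. None of the 14 constitutive proteasome subunits passed 2-fold, and their median was -0.25. Of 15 class I presentation genes, 5 were at least 3-fold higher, among them the peptide transporter Tap1 (6.74-fold) and H2-T24 (12.4-fold). A pair of probe sets shared by the classical heavy chains H2-K1 and H2-D1 differed by 0.05 and 0.77 on the log2 scale. B2m, the class I light chain, was 2.16-fold higher from an unstimulated level of 10.99. None of 9 class II genes passed 2-fold, with changes from -0.45 to 0.36. Their master regulator Ciita was at 4.18 and 4.35. Of all genes 0.893% were at least 3-fold higher, 1.57% at least 2-fold higher and 0.376% at least 2-fold lower. Counts of 0 in lists of 14 and 9 genes are near that background.

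Of 23 chemokines, 5 were at least 3-fold higher, where 0.893% of all genes were: Cxcl10, Cxcl9, Cxcl11, Ccl7 and Ccl2. Cxcl9, Cxcl10 and Cxcl11 are the ligands of Cxcr3 on T cells. Cxcl9 stood at 4.71 and 10.14 (43.1-fold) and Cxcl11 at 4.38 and 6.66 (4.84-fold). The monocyte attractants Ccl2 and Ccl7 were already at 9.90 and 9.63 in unstimulated L929 and reached 11.58 and 11.41. The neutrophil chemokines Cxcl1 and Cxcl2 differed by -0.30 and -0.56.

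Among 22 cytokine genes, 3 were at least 3-fold higher, Il6, Il15 and Il18. Il6, a mediator of the acute phase response, was at 2.11, below the lower quartile of the unstimulated array (3.36), and at 6.07. Il15, which sustains natural killer cells, was at 5.0 and 8.50, and its receptor chain Il15ra, which presents it, was 3.15-fold higher (6.08 and 7.74). Il18 was at 2.74 and 5.55. The gene of the added interferon, Ifnb1, was at 2.78 and 2.56.

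No gene of NF-kB or of immediate early signalling passed 2-fold in L929, with 0 of 14 and 0 of 19. As 1.57% of all genes were 2-fold higher and 0.376% lower, counts of 0 in lists of this size are near the background. Their medians were -0.02 and -0.13. The inhibitor Nfkbia was at 8.10 and 8.05 and Tnfaip3 at 5.83 and 6.27. The list of cell death genes had 6 of 26 members at least 3-fold higher. The death ligand Tnfsf10 (TRAIL) was at 2.96 and 8.44 and the apoptosis cofactor Xaf1 at 3.86 and 8.78. Daxx was 6.19-fold higher, the inflammatory caspase Casp4 5.91-fold, the necroptosis effector Mlkl 3.33-fold and Casp12 3.30-fold. Bbc3 and Pmaip1, the p53-driven death genes, differed by -0.02 and -0.04. At the cell surface 4 of 17 listed genes were at least 3-fold higher, with Cd274 (PD-L1), an inhibitor of T cells, at 4.78 and 7.73 and the costimulator Cd40 at 6.77 and 9.03.

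Induced genes stood beside each other in the genome. In the RefSeq gene order of GRCm38.p6, 63 of the 178 genes (35.4%) were next to another gene at least 3-fold higher, counting measured genes only, against 263 of 19741 (1.33%) of the remaining genes with a place in that order. They formed 22 runs, of which the longest was Ifi209, Ifi208, Ifi207, Ifi203, Ifi202b and Ifi205. Runs of 5 were Ifit2 to Ifit1 and Slfn5 to Slfn2, and runs of 4 included Gbp5, Gbp7, Gbp3 and Gbp2b. Neighbours of 1 family can share probe sequence, and the part of this in the values was not tested.

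Not all neighbours changed alike, as 263 genes that were not 3-fold higher stood beside one that was. One such pair is described here. Rsad2 and Cmpk2 lie side by side with no measured gene between them, and both are known interferon targets, Cmpk2 being a nucleotide kinase that feeds the viperin reaction. In L929 Rsad2 was at 3.96 and 11.73, while Cmpk2 stood at 3.97 and 4.42. In NIH3T3 Cmpk2 was at 3.48 and 8.09 and in RAW264.7 at 6.57 and 10.76. L929 stayed apart from both other lines at Cmpk2, with its stimulated level below the unstimulated level of RAW264.7. Of 68 genes at least 3-fold higher in both other lines, 62 were so in L929 and Cmpk2 was the only one under 2-fold.

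The ISRE-like sequence became more frequent in promoters as the L929 change grew. Promoter windows, here 250 bases before to 50 after the start, were found for 15614 of the genes, 139 of them among the 178. A match was present for 607 of the 15614 genes (3.89%). By size of change the share was 65.5% of 29 genes at least 30-fold higher, 47.6% of 21 genes from 10-fold to 30-fold and 30.3% of 89 genes from 3-fold to 10-fold. It was 6.73% of 104 genes from 2-fold to 3-fold higher, 3.55% of 13902 genes within 1.5-fold and 1.67% of 60 genes at least 2-fold lower. Over the whole 3-fold group 56 of 139 genes held a match (40.3%). With 1 gene kept per run of neighbours, a choice made after seeing the data, the shares of the 3 highest groups were 57.1%, 46.2% and 26%. The GAS-like sequence was in the windows of 8.99% of all these genes and in 10.3%, 19.0% and 16.9% of the same 3 groups.

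Among the 20 largest increases, 14 had a window and 12 of those held an ISRE-like match, as in the Ifit1, Cxcl10, Rsad2 and Gbp7 sequences printed above. Cxcl9, Mpeg1 and Il6 had no match in their windows, nor did Cmpk2. A match is a description of letters, and its absence says only that they are not in this window.

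**Figure D3:**
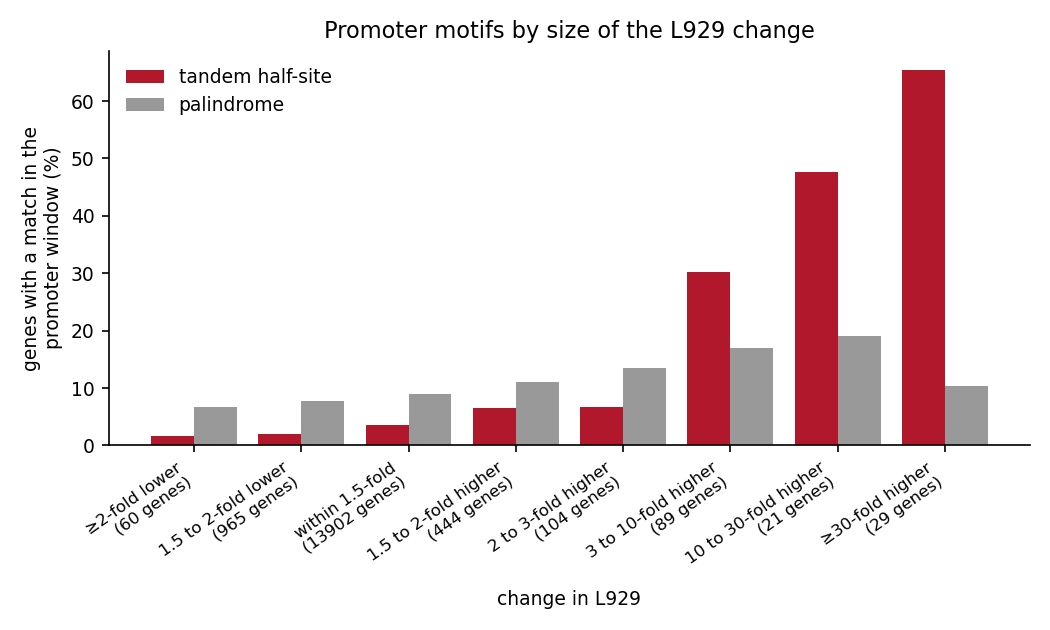
Share of genes (y axis, percent) whose promoter window holds the ISRE-like tandem half-site (red) or the GAS-like palindrome (grey), by size of the change in L929 (x axis, with the number of genes). The tandem share is 65.5% for genes at least 30-fold higher and 3.55% for those within 1.5-fold.

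Whether L929 responded differently from the other lines was tested with limma, as the L929 change minus the mean change of NIH3T3 and RAW264.7. Of 19938 genes, 11 had a larger change in L929 (0.0552%) and 3 a smaller one (0.015%) at an adjusted p under 0.05. The error comes from the difference between NIH3T3 and RAW264.7 alone, with 1 residual degree of freedom drawn toward all genes, and assumes that L929 varies as they do. The calls depend on that spread. Refitted on the 220 genes at least 3-fold higher in any line, limma called 0 in either direction (33 larger and 1 smaller at an unadjusted p under 0.05). Of the 3 genes with a smaller change, only Cmpk2 was among these 220. With a trend of variance on level limma called 181 larger and 97 smaller.

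Cxcl9 had the largest excess. It was at 4.87 and 5.70 in NIH3T3 and at 4.59 and 5.61 in RAW264.7, against 4.71 and 10.14 in L929. The 3 lines began at like levels and only the stimulated L929 array was high. The excess was 4.51 ± 0.35 on the log2 scale (SE, limma adjusted p = 0.00176). Cxcl10, on the same chromosome with 1 measured gene between, was high in all 3 stimulated lines, at 12.23 in L929, 10.78 in NIH3T3 and 11.90 in RAW264.7, with an excess of 2.74 ± 0.39 (limma adjusted p = 0.0476).

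Of the 11 genes, 4 were at least 3-fold higher in both other lines as well: Cxcl10, Rsad2, Iigp1 and Gm4951. Iigp1 had an excess of 3.43 ± 0.41 (limma adjusted p = 0.0159) and Gm4951, another GTPase of the family, of 3.89 ± 0.35 (adjusted p = 0.00205). Gm4841 was at 3.09 and 6.72 in L929 and exceeded the other lines by 2.74 ± 0.35 (adjusted p = 0.0205). Rsad2 reached 8.27 in NIH3T3 and 11.01 in RAW264.7, and its excess of 3.49 ± 0.42 (limma adjusted p = 0.0159) was measured from an unstimulated level of 6.30 in RAW264.7 against 3.96 in L929.

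The other called genes were under 3-fold in both other lines. Ifi214 was at 2.47 and 6.48 in L929 and between 2.27 and 2.91 on the other 4 arrays, an excess of 3.89 ± 0.34 (limma adjusted p = 0.00205). Il6 stood at 2.63 and 3.76 in NIH3T3 and at 1.74 and 2.29 in RAW264.7, an excess of 3.12 ± 0.38 (limma adjusted p = 0.016). Tmem229b, a membrane protein, exceeded them by 2.50 ± 0.36 (adjusted p = 0.0476). Tmem229b, Cxcl10 and Prkg2 were each called in 3 of 6 alternatives, losing the call with the mean over probe sets, with the filter on low levels and in the fit on induced genes. Their highest limma adjusted p over these was 0.315, 0.262 and 0.464. Rsad2, Iigp1, Il6 and Gm4841 were each called in 4 of 6 alternatives, and Cxcl9, Gm4951, Ifi214 and Mpeg1 in 5 of 6. Prkg2, a cyclic GMP-dependent kinase, was at 6.46 and 8.86 in L929 and differed by -0.28 and -0.13 in the other lines (limma adjusted p = 0.0304). Its second probe set differed by 0.13 in L929, and the adjusted p of 0.464 is that of the mean of both.

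Mpeg1, the pore-forming perforin-2 of macrophages, was at 3.91 and 8.09 in L929. In NIH3T3 it was at 3.27 and 3.90, and in RAW264.7 it was high on both arrays, at 9.11 and 9.79. Its excess in L929 was 3.52 ± 0.34 (limma adjusted p = 0.00325). The other 16 macrophage markers, Lyz2, Csf1r, Tyrobp and Ptprc among them, lay between 2.83 and 5.62 on the L929 arrays and between 5.22 and 12.07 on the RAW264.7 arrays. Their changes in L929 ran from -0.45 to 0.69, so that Mpeg1 was high without the rest of the list.

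In the smaller direction, Cmpk2 differed from the other lines by -3.95 ± 0.36 on the log2 scale (SE, limma adjusted p = 0.00205). Usp17ld, a deubiquitinase gene of a family of near-identical copies, was at 9.97 and 5.53 in L929, at 4.52 and 5.02 in NIH3T3 and at 6.55 and 8.11 in RAW264.7. The difference was -5.46 ± 0.45 (limma adjusted p = 0.00176). Its relative Usp17la went the other way in L929, with 5.86 and 7.69, and how the copies share signal was not tested. Olfr1029, an olfactory receptor gene, lay between 2.20 and 3.76 on all 6 arrays, below the median of the unstimulated L929 array (4.77), with a difference of -2.62 ± 0.36 (limma adjusted p = 0.0343).

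**Figure D4:**
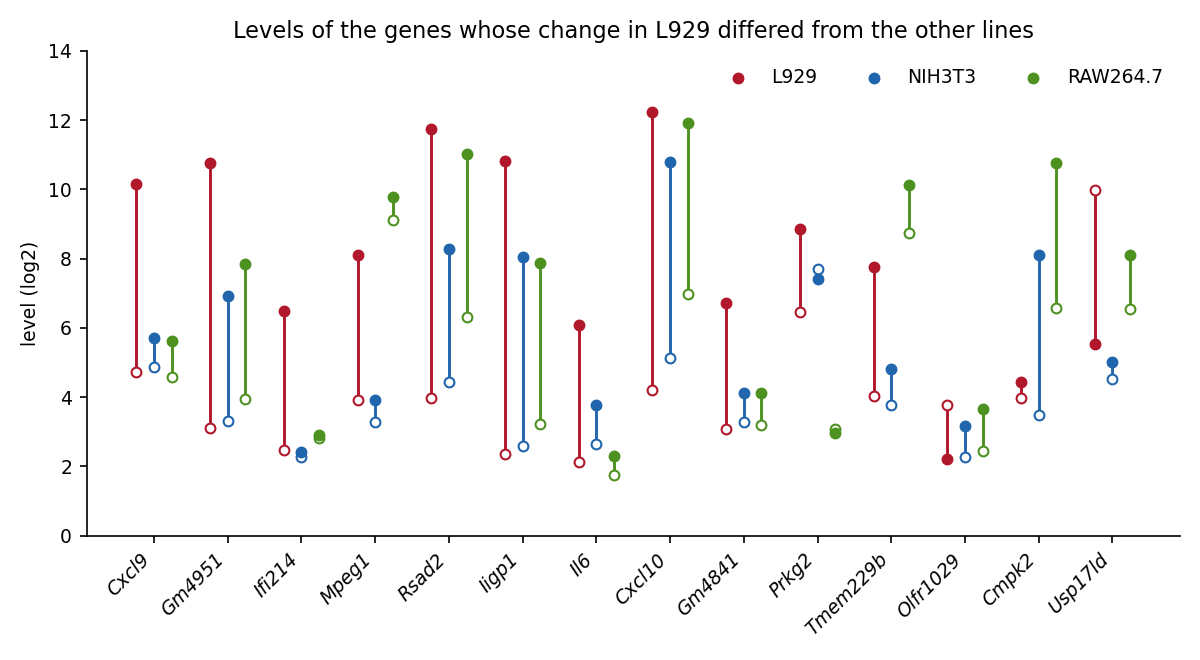
Levels (log2) of the 14 genes whose change in L929 differed from the mean of the other lines (limma adjusted p under 0.05), ordered by the difference. Open circles are unstimulated and filled circles IFN-beta arrays, 1 array each, in red for L929, blue for NIH3T3 and green for RAW264.7; Cxcl9 is high on the stimulated L929 array alone, and Cmpk2 is lower on it than on the other stimulated arrays.

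Over the 178 genes the median change was 2.84 in L929, 1.37 in NIH3T3 and 1.63 in RAW264.7, a comparison that favours L929 because the genes were chosen there. The change was above 0 for 168 of them in NIH3T3 and 167 in RAW264.7, and at least 3-fold for 79 and 91. A further 70 were under 3-fold in both, and 13 were within 1.5-fold in both. Apart from Ifi214, Prkg2 and Irf5, these 13 included Milr1, an inhibitory receptor of mast cells, with levels of 3.68 and 5.99. Serpinb9e and Serpinb6b, protease inhibitors, were 3.54-fold and 3.55-fold higher in L929, and the ion channel Trpm6 3.40-fold. Of the 13, Ifi214 and Prkg2 passed the test of L929 against the other lines.

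Levels were also set against those of the other lines. The unstimulated level was lower in L929 than in RAW264.7 for 141 of the 178 genes (79.2%, against 49.0% of all genes), and the stimulated level was higher for 107 (60.1%, against 51.4%). Against NIH3T3 the unstimulated level was lower for 93 (52.2%, against 46.8% of all genes) and the stimulated level higher for 163 (91.6%, against 33.0%). Choosing genes by their L929 change favours low first and high second levels there, so these shares are descriptions.

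Small differences were more often downward and large ones upward. At 1.5-fold 1270 genes were lower and 892 higher, and 55.8% of all genes were below 0 (61.3% with median centring). The 75 genes at least 2-fold lower had a median change of -1.15 in L929, and 72 of them began above the median of the unstimulated array. None was 2-fold lower in NIH3T3 or RAW264.7, where 19 and 43 of them were below 0. Their median changes there were 0.22 and -0.07, near the medians over all genes of 0.17 and -0.03. The 75 were chosen by their L929 change, so these counts are descriptions. After Usp17ld, Fv1 and Olfr1029 came Scd2, a stearoyl-CoA desaturase, at 9.99 and 8.57, and Gas1, a growth arrest gene, at 8.28 and 6.86. Ifnz, an interferon zeta gene, was at 8.45 and 7.10 and Ccn4, a matricellular protein, at 9.12 and 7.77. Egln3, an oxygen-sensing prolyl hydroxylase, was at 6.82 and 5.54, and the small GTPase Rap2b at 5.36 and 4.01. Taf13, Tmem86a, Trmt61a, Eid3, Cerk and Pdxk had changes between -1.32 and -1.25.

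Matrix genes leaned downward in L929. Of 29 collagen and matrix genes 24 were below 0 (82.8%, against 55.8% of all genes), 2 were at least 2-fold lower and the median was -0.34. Other lists leaned likewise, with 30 of 36 cell cycle, 11 of 13 hypoxia and glycolysis and 11 of 14 constitutive proteasome genes below 0. Fibroblast markers (10 of 16) and matrix proteases (10 of 17) did so less. The median unstimulated level was 7.94 in the matrix list and 5.2 over all genes, and genes of like level were not compared. Col1a1 and Col1a2, the chains of type I collagen, were at 11.32 and 10.10 and at 11.50 and 10.41. In NIH3T3 they were at 11.60 and 11.87 and at 11.36 and 11.80, so that the fibroblast lines began alike and the stimulated L929 array was the lowest of the 4. The 15 collagen genes of the list are a subset chosen after their values were seen. In the deposited values 9044 of all 19938 genes had their smallest change in L929. All 15 collagen genes did so, and all were below 0 in L929, from -1.22 to -0.10. They had a median of -0.65 in L929 and of 0.51 in NIH3T3, where 1 of 15 was below 0 (5 with median centring, 3 with quantile normalization). All 15 were also below 0 in L929 with arrays centred on their medians and with quantile normalization. None passed the test of L929 against the other lines, where Col1a1 had limma adjusted p = 0.733 and Col1a2 0.627.

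**Figure D5:**
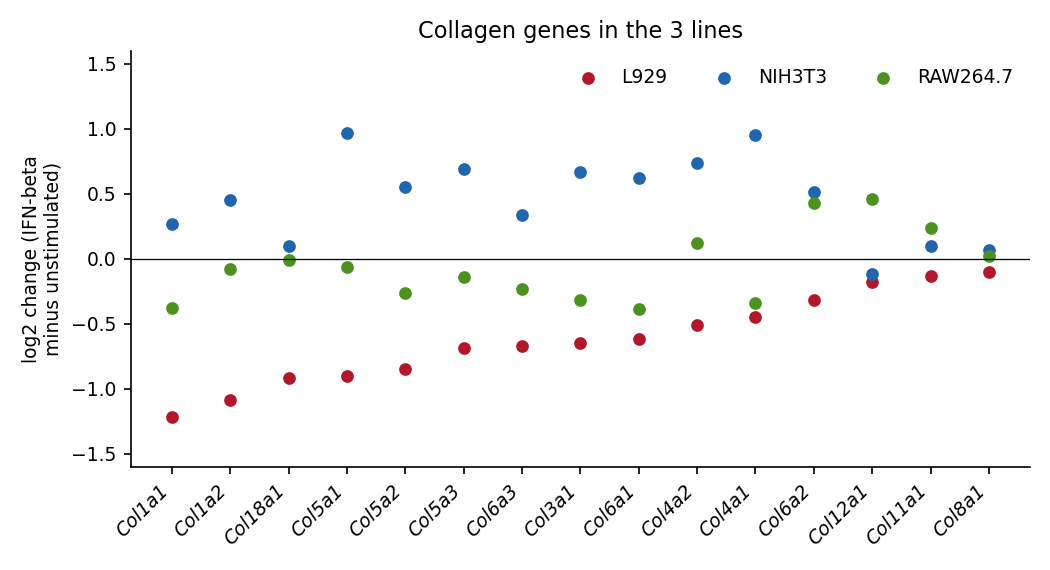
Log2 change (IFN-beta minus unstimulated, 1 array each) of the 15 collagen genes in L929 (red), NIH3T3 (blue) and RAW264.7 (green), ordered by the L929 value. The L929 point is the lowest for each of the 15 genes in the deposited values, where 9044 of all 19938 genes had their smallest change in L929.

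Genes of lipid synthesis and of the cell cycle are read against the 55.8% of all genes below 0 (61.3% with median centring). Of 11 fatty acid synthesis genes 10 were below 0 (9 with quantile normalization) with a median of -0.44, and Scd2 was the 1 gene at least 2-fold lower. Elovl6, an elongase, was at 9.64 and 8.67, the regulator Srebf1 at 7.87 and 7.08 and Fasn at 9.54 and 8.89. Of 19 cholesterol synthesis genes 13 were below 0, with a median of -0.32. Lss, which closes the sterol rings and was the 1 gene at least 2-fold lower, was at 7.07 and 5.92, and Insig1, which restrains the pathway, at 10.11 and 9.17. Growth factor receptors had a median of -0.13, with Tgfbr1 at 7.38 and 6.2 and Pdgfra at 7.82 and 6.88. The cell cycle list had no member past 2-fold among 36, a count near the background. In it 30 were below 0 and the median was -0.19, led by the replication licensing gene Cdc6 at 7.03 and 6.08.

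The label of the line was checked against marker genes. Of 16 fibroblast markers, 11 were above the upper quartile of the unstimulated L929 array (7.0), led by Vim, Col1a2, Col1a1 and S100a4, and 3 were below its median. Those 3 were Dcn, Postn and Lum, at 3.41, 3.13 and 2.27, where NIH3T3 had Dcn at 10.82. Thy1 was at 4.96 in L929 and 10.45 in NIH3T3. The macrophage list had a median of 3.91 in unstimulated L929 and 9.68 in RAW264.7. The 10 epithelial, 9 lymphocyte and 8 endothelial markers had medians of 4.4, 3.71 and 3.92 in unstimulated L929. These lay below the array median of 4.77, though single members were above it, such as Cldn3 at 5.92, Cd3g at 5.25 and Krt8 at 5.03. None of these markers differed by 2-fold after IFN-beta, where 1.57% of all genes were 2-fold higher, and that count does not bear on the label.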

How the data were processed

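One table of 6 arrays held the values of 3 established mouse lines with and without IFN-beta (4 h). The deposited values are log2, obtained by the authors through RMA, per the submitters' processing notes. Neither the version of RMA nor the build behind the array is given in the sources used here. The array annotation names 1 gene for 21789 of 35557 probe sets, several for 1621 and none for 12147, and only the first kind was used by gene name. Symbols were updated by Entrez ID, which failed for 91 probe sets. All 19938 genes entered each comparison, with no filter on low levels. The number of arrays limits the precision. Each column was assigned by its sample's title.

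The L929 response is the difference of 2 arrays, with the threshold of 3-fold taken from the design text of the series. The test of L929 against the other lines used limma 3.58.1 in R 4.3.3, with cell line as a block, IFN-beta and IFN-beta in L929, empirical Bayes (1 residual degree of freedom, prior 9.35) and Benjamini-Hochberg adjustment over 19938 genes. NIH3T3 and RAW264.7 are the only source of its spread. The limma step was tested on simulated data. Their spread was drawn from the prior of the fit itself, so they could not check that L929 varies as the other lines do. Promoter windows and gene order came from RefSeq tables (GRCm38.p6), matched by symbol, with the RefSeq place found for 19919 genes. Other steps ran in Python 3.11.15 (pandas 2.3.3, numpy 2.4.6), and figures in matplotlib 3.10.9.

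The 44 gene lists (708 entries, 633 measured) and the comparison were chosen with earlier results of these data known, so no list was tested. Named genes are the 20 largest increases, every gene 3-fold lower and the 15 largest decreases, the 5 largest changes and the smallest in each list, every member of the receptor, IRF, feedback, Ifit, Oas and GTPase lists, up to 12 called genes in each direction, the 4 highest markers per cell type, and the 10 largest among genes within 1.5-fold in both other lines. Genes named otherwise were chosen after their values were seen, as were the printed promoters. Alternatives covered the mean over probe sets, median centring, quantile normalization, filters at the median level of 5.32, folds of 2 and 5, all probe sets, a variance trend, a fit on induced genes, an adjusted p under 0.1, and the promoter before the start only.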

Additional observations from a re-analysis of the deposited data

Results flagged for a closer look

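The change in L929 differed from the mean of the other lines by limma's test for 11 genes in the larger and 3 in the smaller direction, the values being log2 differences. In the larger direction these were Cxcl9 (4.51), Gm4951 (3.89), Ifi214 (3.89), Mpeg1 (3.52), Rsad2 (3.49), Iigp1 (3.43), Il6 (3.12), Cxcl10 (2.74), Gm4841 (2.74), Prkg2 (2.60) and Tmem229b (2.50). In the smaller direction they were Cmpk2 (-3.95), Olfr1029 (-2.62) and Usp17ld (-5.46).

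Large differences also lay in probe sets that no comparison by gene used. Of 12147 probe sets that name no gene, 303 (2.49%) were at least 3-fold higher in L929 and 164 (1.35%) at least 3-fold lower, against 0.936% and 0.0184% of those naming 1 gene. Their median unstimulated level was 4.10, against 5.25. The largest increase among them was 6.95 on the log2 scale, from 4.45 to 11.40. Whether the values of probe sets that name no gene reflect transcripts was not tested. Among the 1621 probe sets shared by several genes, 57 (3.52%) passed 3-fold upward and 0 downward.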

How the results depend on the processing

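The count of 178 genes at least 3-fold higher stayed between 171 and 178 with the mean over probe sets, median centring, quantile normalization and the filter on low levels, and between 171 and 176 of the original genes were in it. The count lower was 2 or 3 under these. It became 314 higher and 75 lower at 2-fold, 115 and 1 at 5-fold, and 564 and 168 over all probe sets, named or not. The test of L929 against the other lines moved far more. Larger changes numbered 9 with the mean over probe sets, 79 with median centring, 29 with quantile normalization, 4 with the filter, 181 with a variance trend, 17 at an adjusted p under 0.1 and 0 in the fit on 220 induced genes, where limma's lowest adjusted p was 0.093. Smaller changes numbered 6 with median centring, 97 with the trend and 0 in the fit on induced genes, and 2 or 3 otherwise. Usp17ld and Olfr1029 were not 3-fold higher in any line and so were not in the fit on induced genes, which could not call them. The 11 larger and 3 smaller genes were all among those called with the trend, median centring and quantile normalization; the cause of the shifts in count was not tested. The adjusted p of Cxcl9 ranged from 2.24e-13 to 0.093 over its alternatives, that of Cxcl10 from 3.64e-11 to 0.262 and that of Prkg2 from 2.3e-06 to 0.464. Median centring moved the median change of all genes in NIH3T3 from 0.17 to -0.11, and in L929 from -0.05 to -0.09. With the filter on low levels, which leaves fewer genes in a list, the L929 medians became 2.48 for the wider antiviral list, 1.73 for chemokines, 2.02 for surface molecules and 2.44 for macrophage markers (2 genes left). Before the start alone, the ISRE-like share of genes at least 2-fold lower was 0.0%. The labels number no replicates; the test paired both arrays of each line through cell line as a block. One array a side gives no error within L929.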

Other observations

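Outside the gene lists, 67 of the 178 genes at least 3-fold higher in L929 remained, chosen here after their values were seen. Phf11d and Phf11a, neighbouring zinc finger genes, were higher by 6.2 and 5.18 on the log2 scale. Batf2, a leucine zipper transcription factor, was higher by 4.25 and Clec2d, a ligand of natural killer cell receptors, by 4.33. Helz2, a nuclear coactivator helicase, was higher by 3.02, Mov10, an RNA helicase that restrains retroelements, by 2.33 and its relative Znfx1 by 2.32. The RNA components Vaultrc5 and Rny1 were higher by 2.73 and 2.71. Of the 178, 164 were protein-coding in RefSeq.

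Extra single-gene probe sets existed for 7 of the 178 genes, and 6 of these 10 probe sets were at least 3-fold higher and all 10 above 0. The 6 came from 3 of the 7 genes, 4 of them from A530040E14Rik with values in equal pairs (6.7 and 6.77 on the log2 scale), the others from Rnf213 and Tmem229b. The pair for Apobec3, a cytidine deaminase active against retroviruses, disagreed, with 2.15 and 0.18.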
